A study of Mus musculus and Homo sapiens with 32 samples.

Results

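Residual m6A-CT signal was described in mouse embryonic stem cells labelled C57BL/6 Mettl3-/- (KO), which lack the catalytic subunit of the main N6-methyladenosine (m6A) writer. Antibody-directed tagmentation in nuclei (m6A-CT) cuts RNA paired with cDNA next to an anti-m6A antibody, and the matching input comes from undirected tagmentation. For each region that the authors listed in their comparison of the genotypes, the m6A-CT level was divided by the input level, both as RPM (reads scaled to the library total), and log2 of that quotient is called the KO log2 ratio or the wild-type log2 ratio below. Regions needed at least 0.5 RPM of Mettl3 KO input, and a region counted as enriched when its KO log2 ratio was at least 1, which is a 2-fold excess of m6A-CT. Of 33473 listed regions in 10268 genes, 25097 regions in 7441 genes passed the input minimum, and 12251 regions in 4461 genes were enriched. These made up 48.8% of the regions and 60.0% of the genes that could qualify, on a scale whose zero depends on 2 very abundant genes: with these left out of the totals, 2071 regions in 979 genes were enriched.

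m6A is laid down on nascent RNA by the METTL3 and METTL14 complex, favouring long internal exons, the surroundings of stop codons and untranslated regions, and readers such as the YTH proteins then steer splicing, export and decay. In embryonic stem cells the mark shortens the life of many transcripts of the pluripotency network, and cells without METTL3 are slow to leave the naive state. Other enzymes also methylate adenosine: METTL16 acts on hairpins of Mat2a and on a spliceosomal RNA, METTL5 and ZCCHC4 on ribosomal RNA, and PCIF1 makes the cap-adjacent m6Am, which anti-m6A antibodies can bind as well.

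Of the 32 libraries of the series, 8 belong to this comparison, with 2 each of Mettl3 KO m6A-CT, Mettl3 KO input, wild-type m6A-CT and wild-type input. Both genotypes are C57BL/6 stem cells, and the antibody of this set came from MilliporeSigma, while the E14, EPSC and MEF lists used below were made with one from Synaptic Systems. Whether the replicates are separate cultures, and whether the knockout is 1 clone, is not given in the sources used here. The authors' table has 1 value per genotype and library kind, so no spread between replicates can be given, and all intervals are 95% intervals that cover counting error only.

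The values are whole reads divided by totals of 37532658 for Mettl3 KO m6A-CT, 51031598 for Mettl3 KO input, 39310394 for wild-type m6A-CT and 45090626 for wild-type input. The Mettl3 region itself, 375 bp at chr14:52919391-52919765 (mm9, as all coordinates below), held 5.33 RPM of m6A-CT against 2.47 RPM of input in Mettl3 KO, and 1.5 against 1.71 RPM in wild-type. Which exons were deleted is not given in the sources used here, so this level does not check the genotype. The 5 stem cell markers Nanog, Pou5f1, Sox2, Esrrb and Zfp42 were all listed with reads and summed to 542 RPM of input in Mettl3 KO and 679 RPM in wild-type. Only 1 of 5 fibroblast markers was listed, with 30 and 0 input reads in Mettl3 KO and wild-type, 2 of 4 endothelial and blood markers, with 4 and 0, and 2 of 4 epithelial markers, with 83 and 74. In bulk libraries, fewer cells of a type and less RNA per cell cannot be told apart. Nearly every listed region (99.8%) had an FDR under 0.05 in the authors' deposited table, 88.8% of all with a lower (92.1% of those past the input minimum) and 11.0% with a higher value in Mettl3 KO, so regions that were alike in both genotypes are hardly represented.

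The distribution in Mettl3 KO lay below that of wild-type, most of all at its upper end. The input minimum was set on Mettl3 KO input alone, so wild-type values with little input were kept. The size of the gap went with input. In the lowest of 4 equal groups by Mettl3 KO input the median log2 ratios were 0.99 in Mettl3 KO and 1.96 in wild-type. In the highest group they were 0.89 and 1.31. The median KO log2 ratio of the 25097 regions was 0.97 (5th to 95th percentile -0.53 to 2.50), against 1.65 (-0.12 to 3.42) in wild-type, where 73.1% of the same regions were at least 2-fold. Stronger enrichment was rarer in the knockout: 13.4% of regions were at least 4-fold, 1.36% at least 8-fold and 11 regions, 0.0438%, at least 16-fold. Of the enriched regions, 90.6% (Wilson interval 90.1 to 91.1) were also at least 2-fold in wild-type, and in turn 60.5% of the regions enriched in wild-type stayed so in Mettl3 KO. Among the 11102 enriched in both, the KO log2 ratio was within 1 below the wild-type log2 ratio in 67.7%, more than 1 below it in 27.3% and at or above it in 5.03%.

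**Figure D1:**
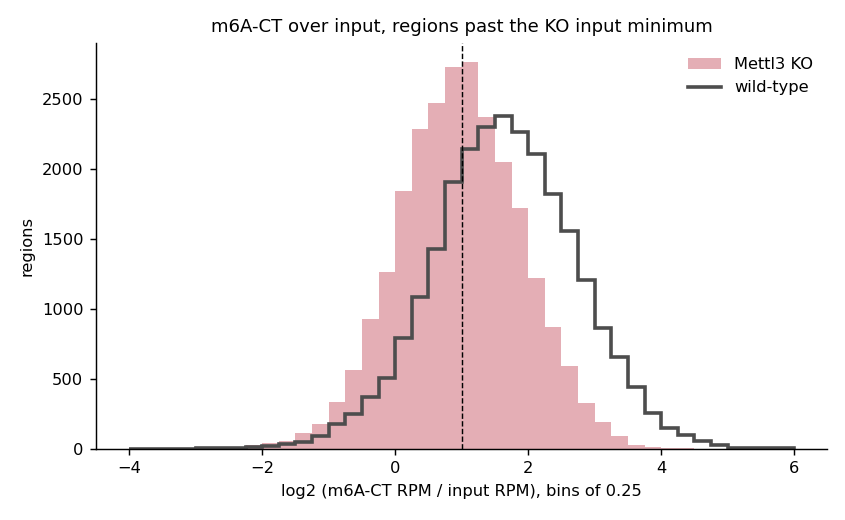
Number of regions (y axis) by log2 of m6A-CT RPM over input RPM (x axis, bins of 0.25), for Mettl3 KO (filled) and wild-type (line), over the 25097 regions past the input minimum. The dashed line marks the 2-fold threshold, values beyond either end are counted in the end bin, and the Mettl3 KO median of 0.97 lies left of the wild-type median of 1.65.

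Where the zero of this scale lies depends on Rn45s and Lars2. Rn45s, the ribosomal RNA precursor, and Lars2, a mitochondrial leucyl-tRNA synthetase gene, together held 54.5% of Mettl3 KO m6A-CT reads, 81.0% of Mettl3 KO input, 36.5% of wild-type m6A-CT and 76.4% of wild-type input. With both left out of the totals, all KO log2 ratios shift by -1.26 and all wild-type log2 ratios by -1.43. The order of regions within a genotype is the same on either scale. Neither gene was itself enriched: the KO log2 ratio was -1.02 at the Rn45s region and 0.22 at the most-read Lars2 region, against -1.64 and -0.50 in wild-type.

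With each gene taken by its most-read region, the highest ratios in the knockout belonged, Arhgap21 apart, to transcripts at least as far above input in wild-type. Less-read regions were not ranked, and a less-read region of Igf2r reached 4.26. At the top stood Gramd4, a GRAM domain protein, whose 3745-bp region at chr15:85948914-85952658 held 471 RPM of m6A-CT against 4.17 RPM of input in Mettl3 KO, and 483 against 3.84 RPM in wild-type. Its KO log2 ratio of 6.82 (6.62 to 7.02) and wild-type log2 ratio of 6.98 (6.76 to 7.20) overlapped in their counting intervals, while the authors' deposited table gave a lower value in Mettl3 KO (log2 fold change -0.66, FDR 1.18e-04). Arhgap21, a GTPase-activating protein, held 16848 RPM of m6A-CT against 382 RPM of input in Mettl3 KO, and 13115 against 491 RPM in wild-type, over a single block of 22704 bp at chr2:20813730-20836433. These were 632337 and 19519 reads in the knockout, the most m6A-CT reads at the most-read region of any enriched gene. The KO log2 ratio of Arhgap21, 5.46 (5.44 to 5.48), lay above the wild-type log2 ratio of 4.74 (4.72 to 4.76). The difference had the same sign in the authors' deposited table (log2 fold change 0.27, FDR 8.89e-78). All 11 regions of Arhgap21 past the input minimum were enriched in Mettl3 KO.

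The other 10 of the 12 highest genes had KO log2 ratios of 3.89 to 4.75, and in all 10 the wild-type log2 ratio was higher still. D130009I18Rik, listed as 1 block of 155189 bp at chr14:105129323-105284511, held 51.1 RPM of m6A-CT against 1.90 RPM of input in Mettl3 KO, and 46.5 against 1.18 RPM in wild-type. Ube3a, the ubiquitin ligase of the Angelman syndrome locus, held 31.8 RPM of m6A-CT against 1.45 RPM of input in Mettl3 KO, and 79.5 against 1.86 RPM in wild-type in a 6000-bp region at chr7:66560199-66566198. For Bmpr2, a type II receptor for bone morphogenetic proteins, the region at chr1:59927089-59934925 held 19.1 RPM of m6A-CT against 0.901 RPM of input in Mettl3 KO, and 66.0 against 1.44 RPM in wild-type. The KO log2 ratio of Bmpr2 was 4.41 (3.97 to 4.87), against 5.52 (5.16 to 5.89). Nnat, an imprinted gene for a small membrane protein, had the shortest region of the 12, 50 bp at chr2:157386201-157386250, with 55.8 RPM of m6A-CT against 2.94 RPM of input in Mettl3 KO, and 57.3 against 1.80 RPM in wild-type. Tmtc2, an O-mannosyltransferase of the endoplasmic reticulum, had KO and wild-type log2 ratios of 4.04 (3.76 to 4.33) and 4.41 (4.05 to 4.78), 2 intervals that overlap. Dcun1d1, which promotes cullin neddylation, and Brwd3, a bromodomain protein, had KO log2 ratios of 3.89 and 3.89, with wild-type log2 ratios of 4.78 and 4.43.

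**Figure D2:**
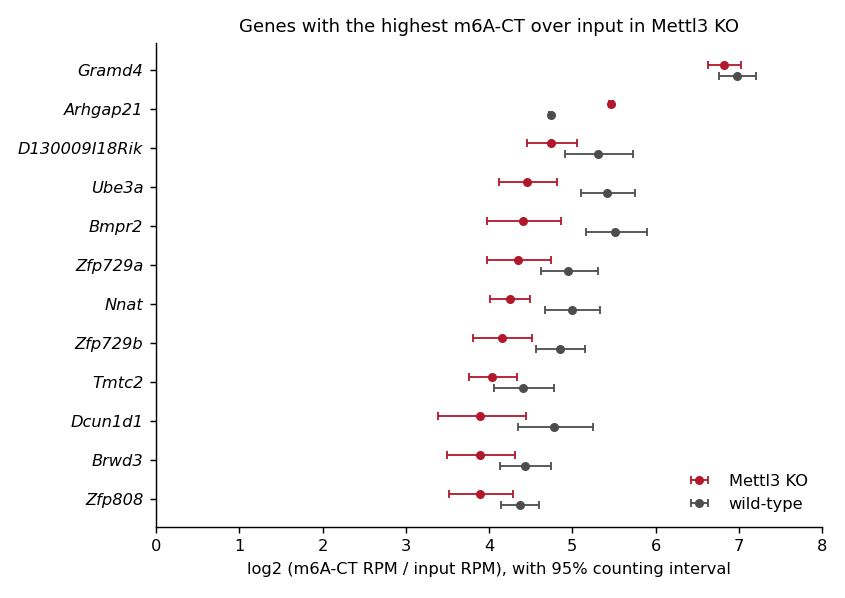
log2 of m6A-CT RPM over input RPM (x axis) for the 12 genes with the highest value in Mettl3 KO at their most-read region (y axis). Mettl3 KO is red (upper point of each pair) and wild-type grey, with 95% counting intervals and no replicate error. Gramd4 stands apart near 7 in both genotypes, Arhgap21 alone is higher in Mettl3 KO, and the other 11 are higher in wild-type, where the intervals of some pairs overlap.

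Zinc finger genes filled the remaining 3 places: Zfp729a, Zfp729b and Zfp808, C2H2 zinc finger proteins encoded on chromosome 13, with KO log2 ratios of 4.35, 4.15 and 3.89 against 4.95, 4.85 and 4.37 in wild-type. Such genes have near-identical copies, and how reads shared by copies were assigned is not given in the sources used here, so their separate values are uncertain. All 4 measured members of the KRAB zinc finger cluster on chromosome 4, a family known for silencing retroelements, were enriched. Zfp534 held 10.3 RPM of m6A-CT against 0.705 RPM of input in Mettl3 KO, and 43.5 against 1.55 RPM in wild-type, Zfp981 held 23.4 RPM of m6A-CT against 1.72 RPM of input in Mettl3 KO, and 76.1 against 3.90 RPM in wild-type, and Zfp990 held 20.5 RPM of m6A-CT against 1.90 RPM of input in Mettl3 KO, and 113 against 5.72 RPM in wild-type. The KO log2 ratios were 3.86 for Zfp534, 3.76 for Zfp981, 3.43 for Zfp990 and 2.42 for Rex2, and the wild-type log2 ratio was higher for each of them. Of the other zinc finger transcription factors, 23 of 25 had an enriched region, and the median of their most-read regions was 1.83, against 1.04 over all 7441 genes. Zfp518a (3.43), Zfp322a (3.20), Zbtb41 (3.09) and Zfp260 (3.08) had their highest KO log2 ratios. Over all symbols of the form Zfp plus a number, a group chosen after values were seen, 172 of 222 genes had an enriched region, and 3 had a KO log2 ratio above that of wild-type, against 4289 and 911 of 7219 other genes. Their regions were long (median 3039.5 bp, against 1391 bp for other symbols). Among most-read regions of 2000 to 5000 bp, 79.5% of 127 Zfp genes (71.7 to 85.6) and 71.0% of 2117 other genes (69.1 to 72.9) were enriched, shares whose intervals overlap.

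Ranked by m6A-CT reads instead, the 10 leading regions other than those of Arhgap21 and Gramd4 had KO log2 ratios of 1.25 to 2.91. After Arhgap21, the enriched regions with the most m6A-CT reads were those of Cadps2, a vesicle priming factor, Malat1, the abundant nuclear noncoding RNA, and Akap12, a scaffold for protein kinase A. Cadps2 held 3497 RPM of m6A-CT against 1473 RPM of input in Mettl3 KO, and 3086 against 1397 RPM in wild-type, spread over 33 blocks. Malat1 held 1469 RPM of m6A-CT against 196 RPM of input in Mettl3 KO, and 1907 against 208 RPM in wild-type, over 6975 bp at chr19:5795690-5802664. Akap12 held 1008 RPM of m6A-CT against 255 RPM of input in Mettl3 KO, and 1716 against 235 RPM in wild-type. The KO log2 ratios were 1.25 for Cadps2, 2.91 for Malat1 and 1.98 for Akap12, with wild-type log2 ratios of 1.14, 3.19 and 2.87. Gramd4 belonged to the 10 most-read as well. The other 5 were short regions of 175 to 400 bp in Ube3c, a ubiquitin ligase (2.84), Itsn1, an endocytic scaffold (2.72), Zfp608 (2.34), Eif3f, a subunit of initiation factor eIF3 (1.35), and Ccne2, cyclin E2 (1.59). Zfp608, Eif3f, Ccne2 and Cadps2 had KO log2 ratios above those of wild-type by 0.61, 0.37, 0.30 and 0.10. In the authors' deposited table, which applies an offset of its own, the log2 fold change was 0.12 for Zfp608 and negative for the other 3 (-0.14, -0.93 and -0.42), so the sources differ in the direction of these 3. The gap is larger for Ccne2 than the median offset of -0.50.

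That offset matters for every statement on the genotypes. By RPM the KO log2 ratio minus the wild-type log2 ratio had a median of -0.69 over the regions enriched in both, and 558 of these regions, 5.03%, were at or above 0. With the totals taken without Lars2 and Rn45s the median was -0.52 and the share 11.3%. By the log2 fold change in the authors' deposited table the median was -1.17 and the share 2.72%. The bulk of regions lay lower in Mettl3 KO under all 3 scalings. A gene slightly above wild-type by RPM can lie below it in the authors' deposited table, as 6 of the named genes do.

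MeTPeak, a second caller that the authors ran on each genotype, listed 20482 peaks in Mettl3 KO and 20055 in wild-type. A Mettl3 KO MeTPeak peak overlapped 81.4% of the enriched regions and 29.5% of the others past the input minimum, against 54.8% of all. The median fold of these peaks was 6.40 at enriched regions and 3.03 at the others. Both files come from the same libraries, so this is agreement between callers and no independent evidence. By gene name, 67.2% of the 4461 enriched genes and 22.5% of the 2980 genes without an enriched region had a Mettl3 KO peak. Gramd4, the gene with the highest KO log2 ratio, had none by name or by overlap, while its tallest wild-type peak was 6.5-fold. D130009I18Rik and Tmtc2 of the 12 highest genes had none in Mettl3 KO either, nor had Cadps2, Zfp608 and Ccne2 of the 10 most-read. The others of both sets had a Mettl3 KO peak by name or by overlap. The fold is the caller's own measure and can be far from the RPM quotient: Rn45s carried a Mettl3 KO peak of 62.1-fold although its KO log2 ratio was -1.02.

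The enriched genes with the highest Mettl3 KO peaks in that list were Tet1, Atp2a2, Nucks1, Mat2a, R3hdm1, Apc, Epha4, Atp13a3, Macf1 and Klf9. Tet1, the 5-methylcytosine oxidase of naive stem cells, led with a 38.7-fold peak in Mettl3 KO, against 60.0-fold in wild-type. Atp2a2, the calcium pump of the endoplasmic reticulum, had 31.5-fold in Mettl3 KO and 47.0-fold in wild-type, and Nucks1, a chromatin-associated protein, 29.5-fold and 47.4-fold. R3hdm1, an R3H domain protein, had nearly the same height in both, 27.3-fold in Mettl3 KO and 27.9-fold in wild-type. Its region held 19.3 RPM of m6A-CT against 1.49 RPM of input in Mettl3 KO, and 32.1 against 1.97 RPM in wild-type, which gave a KO log2 ratio of 3.70 (3.35 to 4.06) against 4.02 (3.71 to 4.35). The ephrin receptor gene Epha4 lay at the other end: its KO log2 ratio of 3.06 (2.74 to 3.39) was far under the wild-type log2 ratio of 5.47 (5.07 to 5.89), although all 10 regions past the input minimum stayed enriched. Epha4 held 15.2 RPM of m6A-CT against 1.82 RPM of input in Mettl3 KO, and 51.0 against 1.15 RPM in wild-type. The noncoding RNA Tug1 behaved alike, with 9.54 RPM of m6A-CT against 1.47 RPM of input in Mettl3 KO, and 156 against 4.48 RPM in wild-type, and log2 ratios of 2.7 and 5.12. For both, the authors' deposited table gave a large loss, with log2 fold changes of -2.87 (FDR 1.83e-26) for Epha4 and -2.76 (FDR 3.61e-37) for Tug1.

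Epha4 and Tug1 were 2 of the 10 genes enriched in both genotypes with the highest wild-type log2 ratios. That set holds by its construction only genes that stayed enriched in Mettl3 KO. Gramd4, D130009I18Rik, Ube3a and Bmpr2 belonged to it too and kept a KO log2 ratio above 4. Zbtb41 had 3.09 in Mettl3 KO and 5.22 in wild-type, Fgd4, an exchange factor for Cdc42, 3.55 and 5.37, and Gm2381 3.49 and 5.26. Plcxd3, with 3.24 in Mettl3 KO, had 3 wild-type input reads alone, and its wild-type log2 ratio was 5.79 (4.22 to 8.09).

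Mat2a, which encodes the enzyme that makes the methyl donor S-adenosylmethionine, is the textbook METTL16 target and one of 914 genes of 7441 whose most-read region had a higher log2 ratio in Mettl3 KO than in wild-type. The region at chr6:72389362-72389550 held 10.1 RPM of m6A-CT against 2.49 RPM of input in Mettl3 KO, and 4.10 against 3.13 RPM in wild-type, with KO and wild-type log2 ratios of 2.02 (1.73 to 2.32) and 0.39 (0.05 to 0.73). The second region, 3′ of it at chr6:72387012-72387439, held 14.1 RPM of m6A-CT against 3.59 RPM of input in Mettl3 KO, and 6.77 against 3.66 RPM in wild-type, with log2 ratios of 1.97 (1.73 to 2.22) and 0.89 (0.60 to 1.18). In both regions m6A-CT was higher in Mettl3 KO and input was not, and neither pair of intervals overlapped. Whether either region holds a METTL16 hairpin is not given in the sources used here, and a part of METTL16 in these values was not tested. A Mettl3 KO MeTPeak peak of 12.7-fold overlapped both regions and no wild-type one did, and the tallest peaks of the gene, 28.4-fold in Mettl3 KO and 15.2-fold in wild-type, lay outside them. In the authors' deposited table the second region had a log2 fold change of 0.56 and an FDR of 0.0174. Mettl16 itself was enriched in all 4 regions past the input minimum in Mettl3 KO, with a KO log2 ratio of 1.77 against 2.14 at its most-read one. Pcif1 and Zcchc4, the other protein genes of this list that were measured, had KO log2 ratios of 0.49 and 0.49, against 1.79 and 2.16 in wild-type.

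Among m6A writers, erasers and readers, 16 of 18 measured genes had an enriched region, with a median of 1.44 over most-read regions. The reader genes Fmr1, Hnrnpa2b1 and Ythdc1 had the highest KO log2 ratios. Fmr1, an RNA-binding protein of the synapse, held 4.58 RPM of m6A-CT against 0.549 RPM of input in Mettl3 KO, and 4.20 against 1.55 RPM in wild-type over 75 bp. Its Mettl3 KO input was 28 reads, and its KO log2 ratio of 3.06 (2.48 to 3.69) lay above the wild-type log2 ratio of 1.43 (1.02 to 1.86). For Hnrnpa2b1 the log2 ratios were 2.78 (2.48 to 3.09) in Mettl3 KO and 1.76 (1.46 to 2.08) in wild-type, and for Ythdc1, the nuclear reader, 2.06 (1.75 to 2.37) and 0.80 (0.36 to 1.24). All 3 were higher in Mettl3 KO in the authors' deposited table too, with FDRs of 4.42e-04, 0.00316 and 0.00193. By RPM only 6 of the 18 genes had a KO log2 ratio above that of wild-type. The readers Ythdf1, Ythdf2 and Ythdf3, named after values were seen, had 0.55, 1.02 and 1.79 in Mettl3 KO, against 1.60, 2.26 and 2.95. Cbll1, the Hakai subunit of the writer complex, had 2.04 in Mettl3 KO and 2.66 in wild-type, and 2 further writer subunits, named after values were seen, were alike: Virma had 1.81 and 2.73, and Zc3h13 2.03 and 2.94. Mettl3 had 1.11 (0.78 to 1.44) and -0.19 (-0.70 to 0.32). Mettl14 had 10 Mettl3 KO input reads and did not pass the input minimum.

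Gene lists are read against all 7441 genes, of which 60.0% had an enriched region, while the most-read region was at least 2-fold in 51.9% in Mettl3 KO and 73.3% in wild-type. Lists were not matched for the number of regions per gene, and more regions give a gene more places to be enriched. Nor were they matched for region length, which went with the ratio as given below. The naive pluripotency list was near the average of all genes, with an enriched region in 20 of 28 members and a median of 1.07 against 1.04, but its members were spread widely. Tet1 held 246 RPM of m6A-CT against 23.3 RPM of input in Mettl3 KO, and 854 against 51.7 RPM in wild-type in its 8825-bp 3′ region, and the KO log2 ratio was 3.40 (3.31 to 3.49). Rif1, a replication timing factor, had 2.61, Lifr, the receptor for leukaemia inhibitory factor, 2.17, and Klf5 1.96. Klf4, another Kruppel-like factor, held 46.4 RPM of m6A-CT against 21.0 RPM of input in Mettl3 KO, and 194 against 57.4 RPM in wild-type at its most-read region, and its KO log2 ratio was highest at the 3′ end, with 1.15, 1.08, 1.15, 1.96 and 2.67 over its 5 regions, against 1.95, 1.77, 1.76, 2.45 and 3.60 in wild-type. The core factors lay under the threshold in Mettl3 KO, while Sox2 and Esrrb were above it in wild-type. Sox2 held 112 RPM of m6A-CT against 82.7 RPM of input in Mettl3 KO, and 296 against 106 RPM in wild-type, and its log2 ratio was 0.43 in Mettl3 KO and 1.49 in wild-type. Nanog had 0.59 and 0.86, Esrrb 0.75 and 1.25, and Pou5f1 0.04 and -0.66. None of the 3 Nanog, 6 Esrrb, 2 Pou5f1 or 1 Sox2 regions past the input minimum was enriched in Mettl3 KO. Zfp42, chosen after values were seen, had 1.07 in Mettl3 KO at its 3′ region, against 1.52, and its other 3 regions lay under 1 in Mettl3 KO.

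Housekeeping groups formed the low end. Of 21 measured cytosolic ribosomal protein genes 2 had an enriched region (median 0.43), and of 32 respiratory chain genes 2 (median 0.02). Rpl27a, at 1.02, was the one ribosomal protein gene whose most-read region passed, and its interval of 0.61 to 1.44 included the threshold. The 2 respiratory chain genes that passed, Ndufs1 of complex I and Sdha of complex II, had 1.65 and 1.53 in Mettl3 KO, against 0.07 and 0.54 in wild-type. All 6 measured replication-dependent histone genes had more input than m6A-CT in Mettl3 KO, and 5 of them also in wild-type, with KO log2 ratios from -3.16 to -1.24. Immediate early genes were low as well, with an enriched region in 3 of 8 and a median of 0.42, against 1.25 in wild-type. Klf6, at 1.83, was the one member whose most-read region passed. The wild-type medians of the first 3 groups were 0.48, 0.20 and -1.47, so they were low with Mettl3 present too. Ribosomal protein and histone genes have near-identical copies, so their counts are uncertain in the same way as those of the zinc finger genes.

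**Figure D3:**
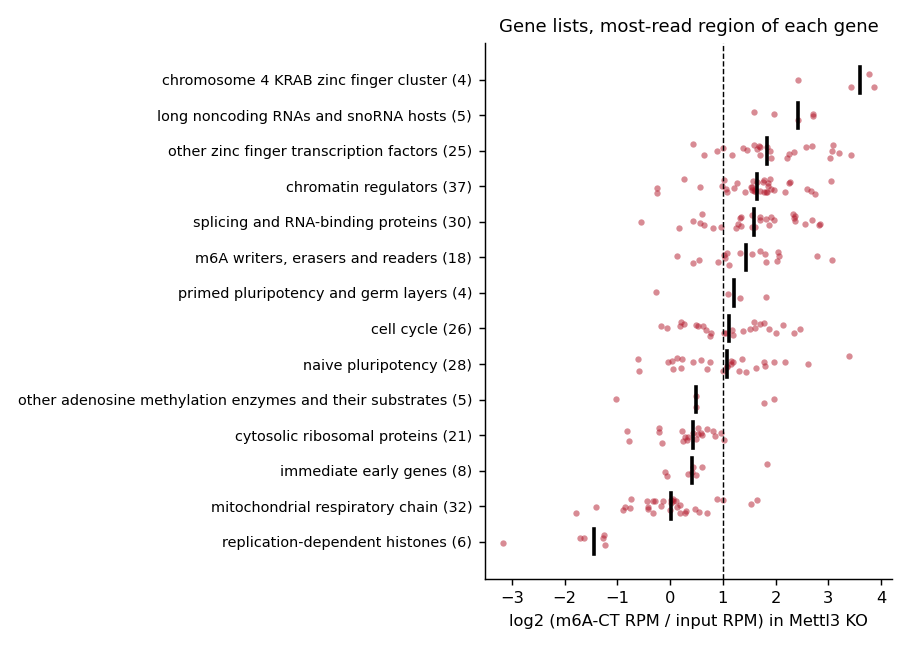
log2 of m6A-CT RPM over input RPM in Mettl3 KO (x axis) for the most-read region of each gene (points), by gene list (y axis, number of measured genes in brackets, lists with at least 4), with the list median as a black bar and the 2-fold threshold as a dashed line. The medians run from 3.60 for the chromosome 4 zinc finger cluster to -1.45 for histones, beside 1.04 for all genes.

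Genes for nuclear regulators lay at the high end. Chromatin regulators had an enriched region in 34 of 37 and a median of 1.65, against 2.31 in wild-type. These 37 genes had many regions past the input minimum, 439, of which 342 were enriched, against 12251 of 25097 over all genes. Ash1l, a histone H3 methyltransferase, held 30.6 RPM of m6A-CT against 3.72 RPM of input in Mettl3 KO, and 61.8 against 4.30 RPM in wild-type over a 20632-bp block, and its KO log2 ratio was 3.04 (2.82 to 3.27). Suz12 of Polycomb repressive complex 2 had 2.74, the remodeller Chd1 2.67 and the H3K36 methyltransferase gene Setd2 2.59, the last with all 13 regions past the input minimum enriched. Splicing and RNA-binding proteins had an enriched region in 25 of 30, and here the median in Mettl3 KO, 1.58, was close to that in wild-type, 1.45. In 14 of the 30 the KO log2 ratio by RPM was above the wild-type one, against 914 of all 7441 genes. Hnrnpd held 8.29 RPM of m6A-CT against 1.16 RPM of input in Mettl3 KO, and 9.51 against 2.93 RPM in wild-type, with log2 ratios of 2.84 (2.44 to 3.27) in Mettl3 KO and 1.70 (1.41 to 2.00) in wild-type. Sf3b1, a core subunit of the U2 particle, had 2.68 (2.45 to 2.92) and 1.92 (1.72 to 2.13). The difference carried an FDR of 0.00907 for Hnrnpd and 0.00475 for Sf3b1 in the authors' deposited table, with higher values in Mettl3 KO. Rbm25 and Srsf5 lay lower in Mettl3 KO, at 2.82 and 2.55, against 3.45 and 3.27 in wild-type. Without Lars2 and Rn45s in the totals, the medians of both lists drop by 1.26 in Mettl3 KO.

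Of the long noncoding RNA list, all 5 genes measured under a symbol of their own were enriched, with KO log2 ratios of 1.59 to 2.71. Malat1, listed under a joint symbol with Mascrna and so not counted there, had 2.91. Neat1, the scaffold of paraspeckles, had log2 ratios by RPM of 2.71 (2.58 to 2.83) in Mettl3 KO and 2.90 (2.78 to 3.02) in wild-type. Its MeTPeak peak was 9.0-fold in Mettl3 KO and 33.0-fold in wild-type, and the authors' deposited table gave a log2 fold change of -0.72 (FDR 5.15e-15). The KO minus wild-type difference of Tug1 was -2.42 ± 0.210 (counting SE) by RPM. Firre (2.42 in Mettl3 KO and 3.11 in wild-type) and the imprinted Meg3 (1.97 and 2.57) lay between Neat1 and Tug1 in this difference. Cell cycle genes had an enriched region in 17 of 26, near the share of all genes. Their high end was formed by the large mitotic transcripts Mki67 (2.46 in Mettl3 KO and 2.90 in wild-type), Cenpf (2.35 and 3.15), Kif20b (2.14 and 2.89) and Cenpe (2.00 and 2.43). Few genes of the other lists were measured: 3 of 4 primed and germ layer genes had an enriched region (Nes, Eomes and Lefty2), as did 2 of 3 fibroblast and matrix genes (Fn1 and Col5a1) and Grhl2 alone of 3 endothelial, blood and epithelial genes.

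The host of the miR-290 cluster, the most prominent microRNA locus of mouse embryonic stem cells, was singled out after values were seen, because its log2 ratio by RPM was nearly equal in both genotypes. The region, 2225 bp at chr7:3218785-3221009 and listed under D7Ertd143e with 6 microRNA genes, held 13.9 RPM of m6A-CT against 2.39 RPM of input in Mettl3 KO, and 14.1 against 2.35 RPM in wild-type. The log2 ratios were 2.54 (2.25 to 2.84) in Mettl3 KO and 2.58 (2.28 to 2.90) in wild-type, a difference of -0.04 ± 0.211 (counting SE). In the authors' deposited table, after the offset, the log2 fold change was -0.57 with an FDR of 0.0354. All 6 microRNA symbols matched the RefSeq table (GRCm38.p6), which gives the 5 3p arms below and only a 5p arm for Mir292. Capitals mark the seed, bases 2 to 8 from the 5′ end, and 3 of the 5 listed arms share 1 seed.
mmu-miR-291a-3p: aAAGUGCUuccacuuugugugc
mmu-miR-294-3p: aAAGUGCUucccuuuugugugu
mmu-miR-295-3p: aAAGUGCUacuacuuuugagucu
mmu-miR-291b-3p: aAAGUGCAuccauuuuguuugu
mmu-miR-293-3p: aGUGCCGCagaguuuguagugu
The first 3 carry AAGUGCU, the seed of the family that targets cell cycle inhibitors in these cells, while miR-291b-3p and miR-293-3p each have another seed. The libraries measure the precursor transcript, not the mature forms.

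Residual signal was not spread evenly along transcripts. In the 2253 genes with at least 4 regions, the 3′-most listed region had the highest KO log2 ratio in 54.6% (52.6 to 56.7) and the 5′-most in 7.28%, where 1 place among the regions of a gene amounts to 16.8% on average. In wild-type the shares were 59.8% and 5.81%. Places were not matched for region length, which went with the ratio as given below. Tet1 followed this order, with 2.11 in its first listed region and 3.40 in its last, against 2.50 and 4.05 in wild-type. In the 443 genes with 10 or more regions the 3′-most one led in 34.5% (30.3 to 39.1) in Mettl3 KO and 47.0% (42.4 to 51.6) in wild-type, where 1 place amounts to 7.50%. An internal region was the highest in 61.6% in Mettl3 KO and 51.5% in wild-type. Internal places together are most of the places in such genes, so these shares show no preference for internal regions.

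Igf2r, the imprinted receptor for insulin-like growth factor 2, is a gene with an internal maximum and was singled out after values were seen. Of its 28 regions 27 were enriched in Mettl3 KO, with a median of 2.76. The first listed region, 0.84, was the exception. Between 76.5 and 81.3 kb along the gene the KO log2 ratios of neighbouring regions were all above 3 and reached 4.26 at 79.5 kb, where 21.0 RPM of m6A-CT stood against 1.10 RPM of input, and the last region had 2.33. The wild-type profile had its maximum, 5.08, 1 region further on. The KO log2 ratio minus the wild-type one was -1.45 to -0.15 over the 28 regions, and its sign turned at the first region alone with totals without Lars2 and Rn45s, which add 0.17. The gene carried a Mettl3 KO MeTPeak peak of 24.3-fold, against 51.0-fold in wild-type, and E14 peaks met every region of the stretch of highest ratios but 1.

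**Figure D4:**
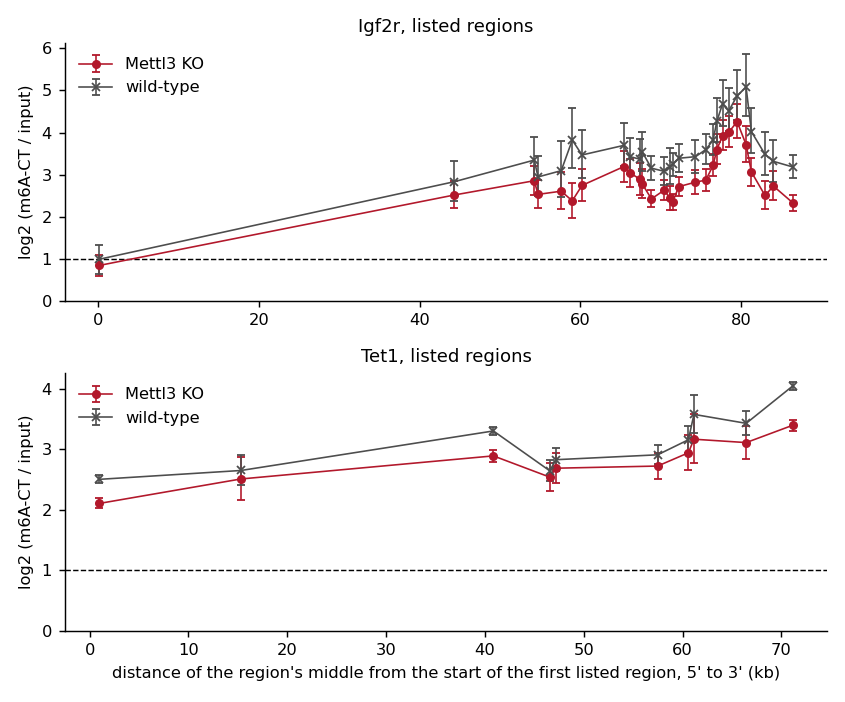
log2 of m6A-CT over input (y axis) at each listed region past the input minimum, by distance of the region's middle from the start of the first listed one (x axis, kb, 5′ to 3′), for Igf2r (top) and Tet1 (bottom), in Mettl3 KO (red dots) and wild-type (grey crosses) with 95% counting intervals. The dashed line marks 2-fold, and the Mettl3 KO profile follows the shape of the wild-type profile at a lower level, with an internal maximum of 4.26 in Igf2r and a 3′ maximum of 3.40 in Tet1.

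Several very long transcripts, of which Hspg2, Dst and Ubr4 were chosen after values were seen, were enriched in all or nearly all regions past the input minimum. All 81 regions of Macf1, a crosslinker of actin and microtubules, were enriched in Mettl3 KO (KO log2 ratios 1.60 to 3.46), as were all 78 of Hspg2, the proteoglycan perlecan (1.87 to 3.24), and all 74 of Dst, dystonin (1.11 to 3.83). Ubr4, a ubiquitin ligase with 54 of 56 regions enriched, differed from these: its median was 1.42 in Mettl3 KO and 0.25 in wild-type. Of all 2253 genes with at least 4 regions, 321 had every region enriched, 1441 some and 491 none.

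Length went with the ratio in both genotypes. Of regions up to 100 bp 43.6% were enriched in Mettl3 KO, of those of 2000 to 5000 bp 73.4%, and of those above 10000 bp 92.3%, with wild-type shares of 66.7%, 94.1% and 97.0%. The lowest share, 33.3%, fell between 200 and 500 bp. Single blocks of at least 20 kb, longer than exons usually are, were enriched in Mettl3 KO in 72 of 76 cases, and the files do not say whether such blocks are exon or intron. The longest, chosen after values were seen, was in Ccser1: 426151 bp at chr6:61906703-62332853 with 15.8 RPM of m6A-CT against 1.20 RPM of input in Mettl3 KO, and 10.6 against 0.377 RPM in wild-type and a KO log2 ratio of 3.72 (3.34 to 4.13). By input level the share enriched in Mettl3 KO was 49.5%, 49.8%, 51.0% and 45.0% from the lowest to the highest of 4 equal groups by Mettl3 KO input. The wild-type shares of the same groups were 82.4%, 76.8%, 71.3% and 62.0%, so the gap between genotypes was narrower at high input.

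Peak lists from other wild-type cells give a readout that the ratio did not use, though by the same assay. E14 is a second mouse embryonic stem cell line, EPSC are expanded potential stem cells and MEF are mouse embryonic fibroblasts, all at 100K nuclei. An E14 peak overlapped 21.2% (20.4 to 21.9) of the enriched regions by at least 1 bp and 1.80% (1.58 to 2.04) of the other regions past the input minimum. For EPSC the shares were 34.4% (33.6 to 35.2) and 4.16% (3.83 to 4.52), and for MEF 65.2% (64.4 to 66.1) and 28.5% (27.7 to 29.3). The E14 share grew with the KO log2 ratio, from 2.19% between 0 and 1 to 12.4% between 1 and 2, 41.3% between 2 and 3 and 71.3% at 3 or more. Longer regions have more bases to be overlapped, and among regions under 1000 bp the E14 shares were 14.9% of the enriched and 1.06% of the others. The authors' E14 peak folds at the regions of the 12 genes with the highest KO log2 ratios ran from 6.15 at Dcun1d1 to 184 at Gramd4, and at those of the 10 most-read genes from 2.42 at Cadps2 to the same Gramd4 value, against a median of 5.14 at all enriched regions with an E14 peak. Cadps2, Ccne2, Akap12 and Eif3f lay under that median.

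**Figure D5:**
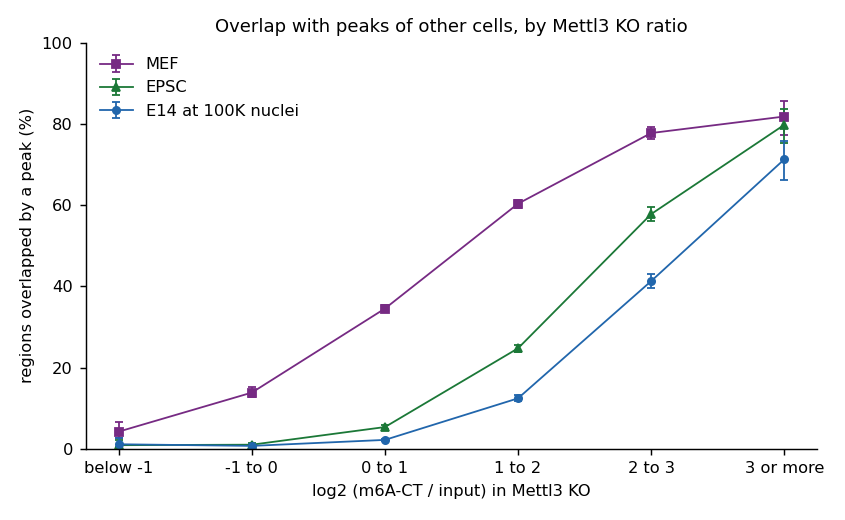
Share of regions overlapped by a peak of MEF, EPSC or E14 wild-type cells (y axis, percent, with Wilson 95% intervals) by the KO log2 ratio of the region (x axis, 6 bins). All 3 shares are under 5% in the lowest bin and highest in the bin of 3 or more, where E14 reaches 71.3% and MEF 81.8%.

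Regions enriched in both genotypes stood apart in this overlap. An E14 peak met 23.1% (22.3 to 23.9) of them, 2.18% (1.48 to 3.19) of the 1149 enriched in Mettl3 KO alone, 2.32% (2.00 to 2.69) of the 7251 enriched in wild-type alone and 1.13% (0.881 to 1.44) of the 5595 enriched in neither. The MEF shares were 67.8%, 40.1%, 35.3% and 19.7% in the same order. What the antibody bound in these regions was not tested.

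The 1149 regions enriched in Mettl3 KO alone lay in 564 genes and were short, with a median of 100 bp, against 200 bp for those enriched in both. Their median KO log2 ratio was 1.52, against 0.27 in wild-type, and in 359 of them wild-type m6A-CT was below input. Myof and Pik3cb had some of the highest KO log2 ratios among those 359 with at least 50 Mettl3 KO reads, a choice made after values were seen. Myof, a membrane repair protein of the ferlin family, held 6.47 RPM of m6A-CT against 1.35 RPM of input in Mettl3 KO, and 0.254 against 0.310 RPM in wild-type over 150 bp at chr19:37990886-37991035. This region and its neighbour stood out by level as well, since the wild-type columns held few reads of either kind. The 1 listed fibroblast marker likewise had 30 input reads in Mettl3 KO and 0 in wild-type. Fn1, of the fibroblast and matrix list, had 47.3 RPM of input in Mettl3 KO and 46.5 RPM in wild-type at its most-read region. Col5a1 of the same list had 0.960 and 0.577 RPM. The part of other cells in these values was not tested. For Pik3cb, a catalytic subunit of phosphoinositide 3-kinase, the region at chr9:98993464-98993638 held 2.77 RPM of m6A-CT against 0.607 RPM of input in Mettl3 KO, and 0.814 against 0.865 RPM in wild-type. Neither of these regions of Myof and Pik3cb met an E14 or EPSC peak, whereas both met a MEF peak.

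The threshold itself cuts through the bulk of the distribution. Just inside it lay M6pr with 1005 m6A-CT and 683 input reads in Mettl3 KO, and Nupl2 and Igsf8 with 181 and 123 reads each. Just outside lay regions of Hcfc1 with 628 and 427, and of Acsl1 and Nudt18 with 50 and 34 each. All 6 have a KO log2 ratio of 1.00 to 2 decimals, and the counting intervals run from 0.34 to 1.67 at the widest. Requiring the lower end of the interval to reach 2-fold left 8364 regions.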

How the data were processed

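The submitters' processing notes name Trim Galore, STAR 2.7.2, mm9 and MACS2, whose narrowPeak format the E14, EPSC and MEF lists have, and the sample descriptions name MeTPeak and exomePeak2. In the authors' deposited table the RPM columns hold 1 value per genotype and library kind, with whole reads recovered from 100% of values within 0.01 reads. The deposited log2 fold change and its p-value (as FDR) are the authors' own, with an offset whose median against the RPM difference was -0.50. The deposited fold values of peaks are ratios of the callers, used to describe and filter peaks.

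Here the log2 ratio of m6A-CT over input was computed without a pseudocount, with Clopper-Pearson intervals for ratios and Wilson intervals for shares (Python 3.11.15, pandas 2.3.3, scipy 1.17.1, bedtools 2.31.1). The region with the most Mettl3 KO reads stands for a gene, and gene lists were matched to single symbols, so regions listed under joint symbols are not counted in them. With 1 pooled value per group no test was run. The intervals and totals were checked on simulated data. MeTPeak peaks overlap on the same strand by at least 1 bp, MACS2 peaks without regard to strand. Without molecular identifiers, PCR copies count as separate reads, so intervals are too narrow as to molecules.

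Members, the 16 gene lists and the rule for named genes were chosen with earlier results of these data known. The rule took the 12 highest KO log2 ratios with at least 50 reads, the 10 most-read enriched genes, the 10 highest MeTPeak folds, the 10 highest wild-type ratios among genes enriched in both, up to 4 enriched genes per list, 3 regions on either side of the threshold, and Mettl3, Mettl14, Mat2a, Rn45s, Lars2, Tet1, Nanog, Pou5f1, Sox2, Klf4 and Esrrb.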

Additional observations from a re-analysis of the deposited data

How the results depend on the processing

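The count of enriched regions depends on where the scale is set, more than on the input minimum. With totals without Lars2 and Rn45s, 2071 regions in 979 genes were enriched in Mettl3 KO, 85.4% of them also in wild-type, 92.5% with a Mettl3 KO MeTPeak peak and 52.0% with an E14 peak, against 7.58% of the other regions; 34 list genes then passed at their most-read region, against 141. With ratios centred on the median region the values were 3510 regions, 1538 genes, 71.7%, 91.4% and 43.6% (5.99% of the others). An input minimum of 2 RPM gave 5684 regions, 2539 genes, 91.6%, 91.7% and 30.5%. At 1 RPM the 3 shares were 91.6%, 87.0% and 24.9%, at 0.25 RPM 89.4%, 76.4% and 19%, and with the lower end of the counting interval at 2-fold 91.2%, 88.9% and 28.8%. A 4-fold threshold kept 3352 regions in 1473 genes. A wild-type threshold of 1.5-fold gave 93.1% enriched in both. Requiring overlap of at least 0.5 of the exonic length gave 65.1% for MeTPeak and 11.7% for E14 (others 19.5% and 0.576%), and peaks of at least 5-fold 54.2% and 11.0% (others 5.94% and 0.576%). In each E14 pair given here the enriched regions had the larger share. No paired analysis was possible because the files give 1 pooled value per genotype and library kind, and leaving out a replicate could not be run for the same reason. A region near the input minimum has 26 input reads, so small differences between regions are not resolved there.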
